A study of Mus musculus with 12 samples.

Results

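The genes described here are 7 RNA-binding proteins that take part in the choice between alternative exons of the FGF receptor 2 transcript and of other transcripts that differ between epithelium and mesenchyme: Esrp1, Esrp2, Rbm47, Rbfox2, Ptbp1, Mbnl1 and Qk. They were chosen by symbol, as splicing factors of epithelial or mesenchymal cells, with earlier results of these data known. They make up 7 of the 52636 genes of the count table. Each had at least 317 reads in every library, so all 7 passed the filter on low counts and were tested. Whole-gene read counts were measured, so the values give the RNA level of each regulator and say nothing about which exon of Fgfr2, or of any other target, was used.

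Total RNA was sequenced from mouse salivary glands taken from the lower jaw at E13.5 and cultured on a membrane for 2 days. The 12 libraries fall into 5 groups. FGFRi glands (n = 3) were wild type (genotype wt) and received SU5402 at 2.5 µM, an inhibitor of FGF receptor kinases, and DMSO glands (n = 3), also wt, received the solvent at the same dilution. HOM glands (n = 2) carried the homozygous K14Cre-Fgfr2b deletion, and their littermates were HET (n = 2) and WT (n = 2), all 3 with the treatment given as none. The keratin 14 promoter drives Cre in K14-expressing epithelium, so mesenchyme keeps its Fgfr2, and the labels do not say which HET or WT glands carried Cre. All 12 libraries share 1 batch label, and their totals were 6043701 to 22322182 reads. Which libraries stem from different embryos or litters is not stated, so the p-values reflect spread among libraries and part of that spread may be technical.

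As background, FGF receptor 2 is made in 2 forms that differ in the second part of the third immunoglobulin domain. Epithelium splices in exon IIIb, which binds FGF7 and FGF10 from the mesenchyme, and mesenchyme splices in exon IIIc, which binds other FGFs. ESRP1 and ESRP2 are epithelial proteins that favour exon IIIb and silence exon IIIc, and their loss switches cells to the IIIc form. RBFOX2 binds the motif UGCAUG, PTBP1 binds pyrimidine-rich RNA and represses exon IIIb in cells that use IIIc, and QK and MBNL1 act on many exons that change between epithelial and mesenchymal or muscle cells.

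Exon IIIb is shown because the deletion of this cross is aimed at the form of the receptor that holds it, and because the ESRP proteins favour its use. It has 148 bases and lies on the minus strand at chr7:130199758-130199905 in GENCODE M21 (build GRCm38). It is written 5′ to 3′ on the transcript strand.
exon IIIb: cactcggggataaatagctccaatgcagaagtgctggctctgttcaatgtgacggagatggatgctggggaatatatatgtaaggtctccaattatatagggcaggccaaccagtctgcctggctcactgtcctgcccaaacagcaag

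All 7 regulators were read at substantial levels in every group. Per kilobase of merged exon, the mean level over the 12 libraries was highest for Ptbp1 with 56.3 CPM per kb (CPM are read counts scaled to a common library size by TMM), followed by Esrp1 with 35.7, Rbfox2 with 21.5, Rbm47 with 19.4, Esrp2 with 15.5, Qk with 8.86 and Mbnl1 with 4.50 CPM per kb. Merged exon length counts every alternative exon and long UTR, and at 18717 bases for Mbnl1 and 14242 for Qk it understates these 2 most. In all 12 libraries Ptbp1 came first and Esrp1 next, and Qk and Mbnl1 came last. The ranges over libraries of Rbfox2 (17.9 to 25.0 CPM per kb) and Rbm47 (14.6 to 24.2) overlapped, as did those of Rbm47 and Esrp2 (13.2 to 18.8).

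The middle of this order differed between groups. The level of Rbm47 per kb was 0.66, 0.70 and 0.75 times that of Rbfox2 in FGFRi 1 to 3, against 1.18, 1.35 and 1.13 times in DMSO 1 to 3. The same ratio was 0.70 and 0.59 in HOM 1 and 2, 0.99 and 0.91 in HET 1 and 2, and 1.05 and 1.07 in WT 1 and 2. Rbm47, an epithelial RNA-binding protein, thus stood below Rbfox2 per kb in every FGFRi, HOM and HET library and above it in every DMSO and WT library. HET 1, at 0.99, lay close to equality. In HOM 2 Esrp2 also stood above Rbm47 per kb. Where these ratios cross 1 depends on the merged exon lengths (7163 bases for Rbm47, 8140 for Rbfox2). By CPM Rbm47 lay below Rbfox2 also in WT 1 (161.6 against 174.7), WT 2 (156.9 against 166.0) and DMSO 3 (146.8 against 148.1). Within the ESRP pair, Esrp1 exceeded Esrp2 per kb by 2.04 to 2.63 times over the 12 libraries.

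**Figure D1:**
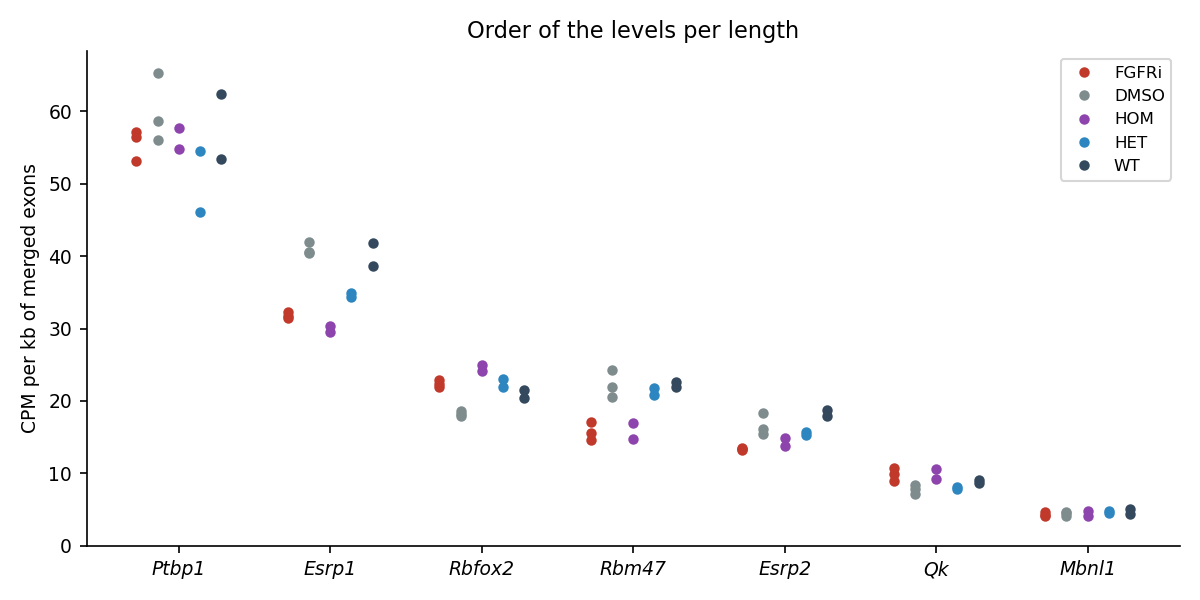
Level of each regulator per kilobase of merged exon (CPM per kb, linear axis from 0) in each of the 12 libraries, with 1 column of points per group. Ptbp1 lies highest and Mbnl1 lowest in every library, and Rbm47 and Rbfox2 change places between groups.

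The inhibitor was compared with its solvent to ask what the treatment does to the gland. Action of the inhibitor on kinases other than FGF receptors was not tested. Of the 7 regulators, 5 passed the test: Esrp1, Esrp2 and Rbm47, which are restricted mainly to epithelia, fell, and Rbfox2 and Qk, which mesenchymal cells also use, rose. Over all 15859 genes tested, 20.5% were called, 9.73% higher and 10.7% lower, so calls were common in this comparison. All changes were small, from 0.71 to 1.27 times the DMSO level.

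Esrp1, the more abundant epithelial splicing regulator, had 198.4, 199.8 and 204.0 CPM in FGFRi 1 to 3, against 256.1, 264.7 and 255.0 CPM in DMSO 1 to 3. The groups did not overlap, and the spread within each was only a few CPM. Esrp1 fell by 0.37 log2 units (SE 0.06, adjusted p = 0.000950). Esrp2, its paralog, had 58.2, 57.3 and 58.3 CPM in FGFRi 1 to 3, against 79.4, 70.0 and 66.7 CPM in DMSO 1 to 3. The 3 FGFRi values were almost equal and lay below every DMSO value, and DMSO 1 was the highest. Esrp2 fell by 0.31 (SE 0.08, adjusted p = 0.00982), a call that was lost without FGFRi 2 (adjusted p = 0.0539).

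Rbm47, which acts on epithelial exons and is a cofactor of APOBEC1 in RNA editing, showed the largest change of the 7. It had 104.2, 111.2 and 122.2 CPM in FGFRi 1 to 3, against 156.9, 173.5 and 146.8 CPM in DMSO 1 to 3. No FGFRi library reached the lowest DMSO library. The fall was 0.50 on the log2 scale (SE 0.08, adjusted p = 0.000772).

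Rbfox2 had 178.5, 181.7 and 186.3 CPM in FGFRi 1 to 3, against 151.7, 145.6 and 148.1 CPM in DMSO 1 to 3. All FGFRi libraries lay above all DMSO libraries, and its log2 change was 0.30 (SE 0.06, adjusted p = 0.00369). Qk, the STAR-family protein quaking, known for its role in myelin-forming glia and in splicing during epithelial-mesenchymal transition, had 152.3, 126.8 and 141.7 CPM in FGFRi 1 to 3, against 101.7, 110.8 and 118.5 CPM in DMSO 1 to 3. Its groups did not overlap either, with FGFRi 2 and DMSO 3 the nearest values, and its log2 change was 0.34 (SE 0.08, adjusted p = 0.00933). Of all tested genes 17.2% had every FGFRi library above every DMSO library and 20.5% had every one below.

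The other two did not pass. Ptbp1, the pyrimidine-tract repressor, had 267.7, 271.1 and 252.1 CPM in FGFRi 1 to 3, against 309.6, 265.6 and 277.8 CPM in DMSO 1 to 3. The groups overlapped through DMSO 2, and the log2 difference was -0.11 (adjusted p = 0.430, 95% interval -0.30 to 0.08). Mbnl1, a muscleblind protein that favours adult splicing patterns in differentiating muscle, had 76.9, 78.9 and 86.2 CPM in FGFRi 1 to 3, against 77.8, 86.5 and 85.4 CPM in DMSO 1 to 3. These values overlapped almost wholly, and the log2 difference was -0.04 (adjusted p = 0.779, 95% interval -0.22 to 0.14). Changes as large as the ends of these intervals are not excluded.

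**Figure D2:**
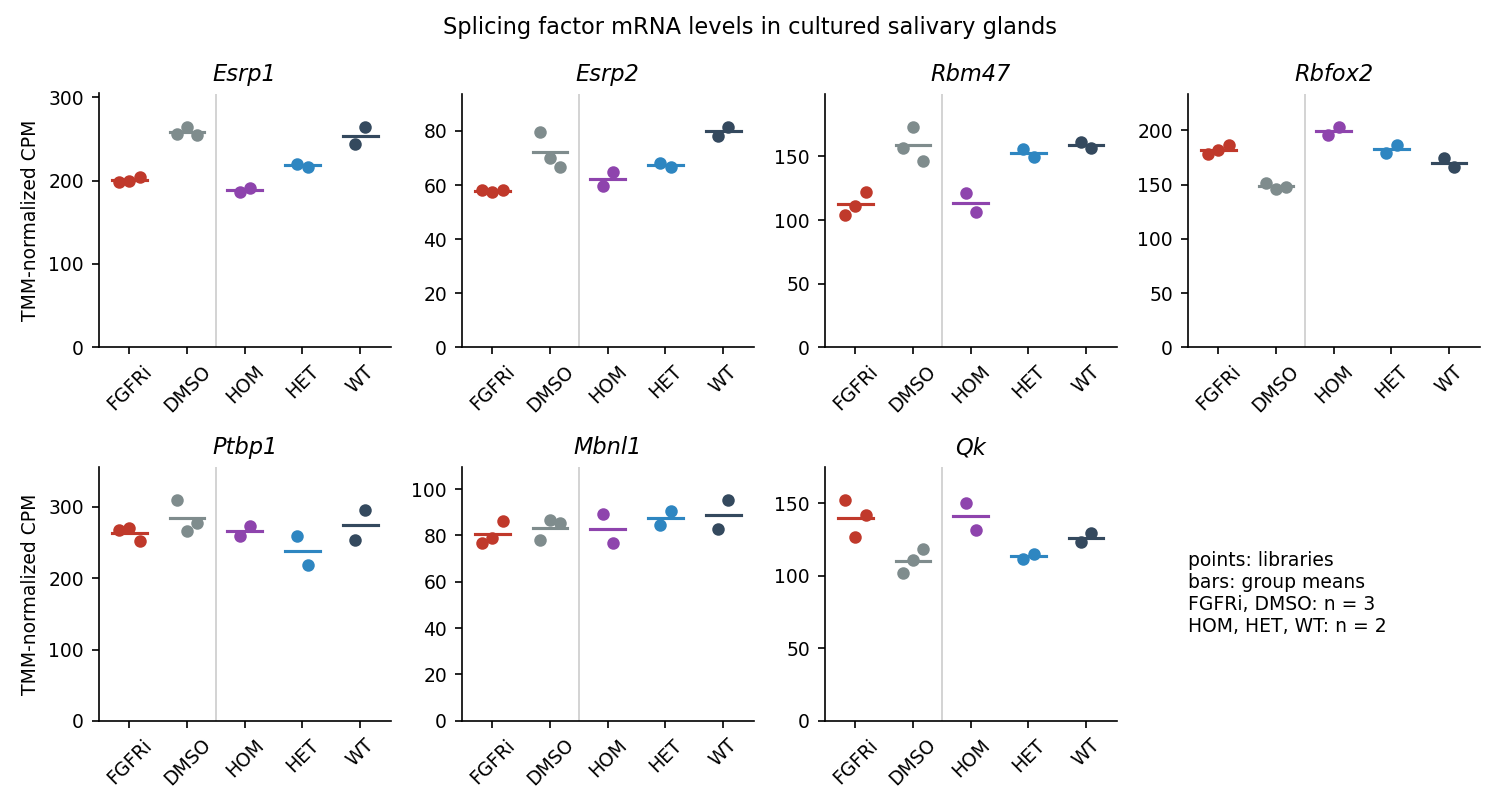
TMM-normalized CPM of each of the 7 regulators in every library, 1 panel per gene, with points for libraries and a bar for each group mean, in the order FGFRi, DMSO, HOM, HET, WT. Esrp1, Esrp2 and Rbm47 lie lower and Rbfox2 and Qk higher in FGFRi than in DMSO without overlap, while Ptbp1 and Mbnl1 overlap.

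With libraries scaled to their total reads in place of TMM, 0 of the 7 were called, and the share of all genes called was 8.22%. The fitted changes were much the same (Esrp1 -0.35, Rbm47 -0.47 and Qk 0.35), and the SE of Esrp1 was 0.20 in place of 0.06.

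The homozygous deletion was compared with both littermate genotypes to ask what loss of epithelial Fgfr2b does. Whole-gene counts of Fgfr2 do not separate the deleted form and check nothing about the deletion: Fgfr2 had 89.2 and 94.4 CPM in HOM, against 86.2 and 99.9 CPM in HET and 101.0 and 99.2 CPM in WT. Of the 7 regulators, 2 passed against the mean of WT and HET, Esrp1 and Rbm47, both lower. Over all tested genes 5.88% were called, 3.44% higher and 2.44% lower.

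Esrp1 had 186.2 and 191.6 CPM in HOM, against 219.8 and 216.4 CPM in HET and 243.3 and 263.8 CPM in WT. Both HOM values lay below all 4 controls, with HET between HOM and WT. Esrp1 fell by 0.32 log2 units (SE 0.07, adjusted p = 0.0114). Rbm47 had 121.5 and 106.0 CPM in HOM, against 155.6 and 149.6 CPM in HET and 161.6 and 156.9 CPM in WT. Here HET lay close to WT, and both HOM values were well below. Rbm47 fell by 0.46 (SE 0.09, adjusted p = 0.00665).

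The remaining regulators did not pass. Esrp2 had 59.5 and 64.7 CPM in HOM, against 68.2 and 66.5 CPM in HET and 78.0 and 81.6 CPM in WT, a log2 difference of -0.24 (SE 0.08, adjusted p = 0.0943). Both HOM values were the lowest of the 6, but HOM 2 was near HET 2. Rbfox2 had 196.0 and 203.5 CPM in HOM, against 178.8 and 186.9 CPM in HET and 174.7 and 166.0 CPM in WT, a difference of 0.18 (SE 0.06, adjusted p = 0.122). Qk had 150.4 and 131.6 CPM in HOM, against 111.7 and 115.1 CPM in HET and 123.5 and 129.4 CPM in WT, a difference of 0.23 (SE 0.09, adjusted p = 0.131). For both, HOM lay above all 4 controls, for Qk only narrowly in HOM 2, but scaled to mesenchymal counts Rbfox2 was at -0.20 and Qk at -0.14, neither called. Thus 3 regulators had both HOM libraries below and 2 had both above all controls, where 12.2% of tested genes were below and 13.4% above.

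Ptbp1 differed by 0.06 on the log2 scale (adjusted p = 0.802, 95% interval -0.14 to 0.25) and Mbnl1 by -0.09 (adjusted p = 0.640, 95% interval -0.28 to 0.09). Ptbp1 had 259.7 and 273.2 CPM in HOM, against 258.7 and 218.5 CPM in HET and 253.4 and 295.8 CPM in WT. Mbnl1 had 89.0 and 76.8 CPM in HOM, against 84.4 and 90.6 CPM in HET and 82.7 and 95.2 CPM in WT. Both Ptbp1 values in HOM lay inside the range of the controls, and for Mbnl1 HOM 1 lay inside it and HOM 2 below it.

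Set against each littermate genotype alone, the 3 epithelial regulators all fell in HOM relative to WT: Esrp1 by 0.42, Esrp2 by 0.36 and Rbm47 by 0.49 (adjusted p = 0.00367, 0.0250 and 0.00821), where 7.56% of genes were called and 3.06% were called lower. Relative to HET, with 1.49% of genes called and 0.876% called lower, Rbm47 alone fell, by 0.43 (adjusted p = 0.0473). Esrp1 differed there by -0.21 (adjusted p = 0.243) and Esrp2 by -0.11 (adjusted p = 0.679). In HET against WT 0 of the 7 were called (edgeR, adjusted p of 0.219 or more, with 1.22% of genes called), 2 had an unadjusted p under 0.05, and DESeq2 and limma-voom also called 0. Those 2 were Esrp1, with a difference of -0.22 (unadjusted p = 0.0124), and Esrp2, with -0.24 (unadjusted p = 0.0169).

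These calls rest on groups of 2. Against WT, 1 regulator was called without HOM 2 or without WT 1 and 0 without WT 2, and Esrp2 also lost its call without HOM 1 (adjusted p = 0.127). Against HET, Rbm47 was called in 3 of the 12 fits that left out 1 library. Without HOM 1 the call of Esrp1 against the mean of WT and HET was lost (adjusted p = 0.0872), and likewise without WT 2 (0.0748). Without HOM 2 neither Esrp1 (0.111) nor Rbm47 (0.173) was called. Both HOM libraries came from female glands and all 4 controls from male glands, by Xist and Ddx3y counts, so genotype and sex cannot be told apart within the cross. A fit with sex as a covariate, which borrows the sex difference from the DMSO libraries (1 male, 2 female), gave -0.26 for Esrp1 and -0.27 for Rbm47 and called 0 of 7, beside 0.29% of all genes. All FGFRi libraries were female, and without the male DMSO 2 the same 5 regulators were called in FGFRi against DMSO.

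The DMSO and WT groups are both wild type without inhibitor. In DMSO against WT 0 of 7 were called (edgeR, 2.26% of genes called), 1 had an unadjusted p under 0.05, and DESeq2 and limma-voom called 0. That gene was Rbfox2, with 148.5 ± 3.07 CPM in DMSO (SD, n = 3) and 170.3 ± 6.13 CPM in WT (SD, n = 2), a log2 difference of -0.20 (adjusted p = 0.172, 95% interval -0.35 to -0.05).

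The effects of the inhibitor and of the deletion were then compared directly. The inhibitor and the deletion gave -0.37 and -0.32 for Esrp1, -0.31 and -0.24 for Esrp2, and -0.50 and -0.46 for Rbm47. They gave 0.30 and 0.18 for Rbfox2, and 0.34 and 0.23 for Qk. For Ptbp1 the signs differed, -0.11 and 0.06, and Mbnl1 had -0.04 and -0.09. No difference between the 2 effects was called for any of the 7 (edgeR, adjusted p of 0.555 or more, 2.77% of genes called, 1.36% higher and 1.41% lower), 0 had an unadjusted p under 0.05, and DESeq2 and limma-voom also called 0. The 95% intervals of the difference were -0.24 to 0.14 for Esrp1, -0.31 to 0.16 for Esrp2 and -0.30 to 0.21 for Rbm47. They were -0.07 to 0.31 for Rbfox2, -0.44 to 0.10 for Ptbp1, -0.21 to 0.31 for Mbnl1 and -0.15 to 0.37 for Qk. Unequal effects of that size are not excluded.

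**Figure D3:**
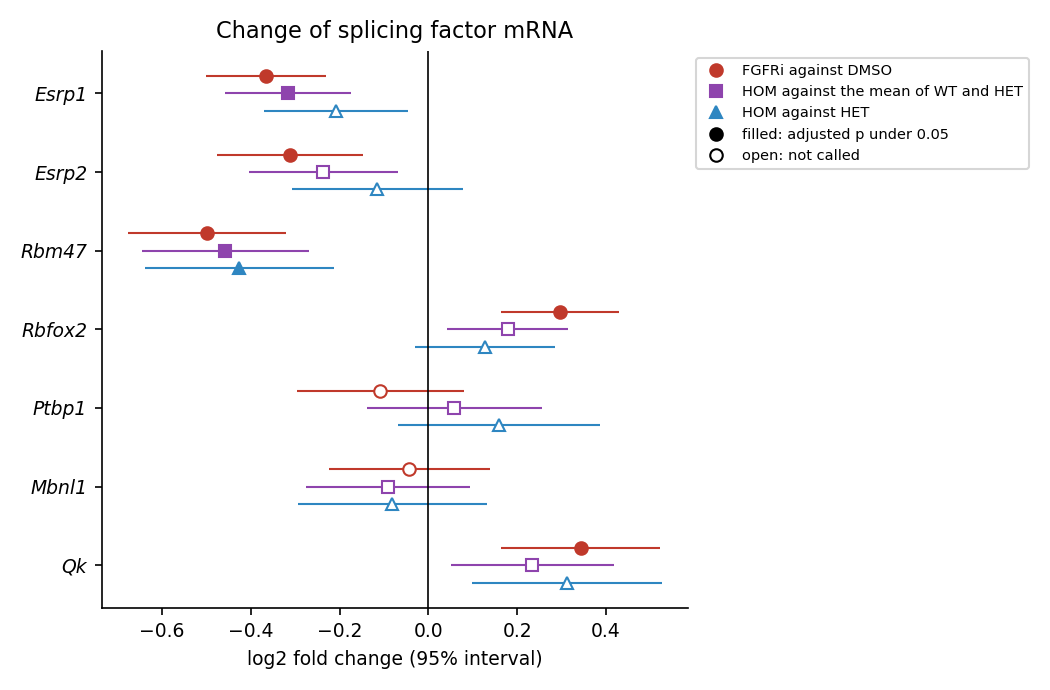
Log2 fold change with 95% interval of each regulator for FGFRi against DMSO and for HOM against both controls averaged and against HET alone, with filled symbols where the adjusted p was under 0.05. The point estimates of Esrp1, Esrp2 and Rbm47 lie left of 0 and those of Rbfox2 and Qk right of 0 in all 3 comparisons. The intervals of Ptbp1 and Mbnl1 include 0 in all 3 comparisons, and those of Esrp2 and Rbfox2 include 0 in HOM against HET.

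Marker genes of the cell types in the gland moved with these results. The summed level of 15 epithelial markers (Epcam, Cdh1, keratins, claudins and others) was 2184 to 2394 CPM in FGFRi, against 2887 to 3423 CPM in DMSO, and 12 of the 15 fell and 1 rose. It was 1903 to 2022 CPM in HOM, against 2489 to 2725 CPM in HET and 2918 to 2966 CPM in WT. Relative to the mean of WT and HET, 8 of 15 fell in HOM. The sum of 14 mesenchymal markers was 3713 to 5120 CPM in FGFRi, against 2263 to 2415 CPM in DMSO, and 12 of 14 rose. In HOM it was 3867 to 4009 CPM, against 3460 to 3779 CPM in HET and 2490 to 2578 CPM in WT. Relative to the mean of WT and HET, 7 of 14 rose in HOM. Of all genes 20.5% were called in FGFRi against DMSO and 5.88% in HOM against that mean. In HOM against HET 4 of 15 epithelial markers fell and 0 of 14 mesenchymal markers were called (1.49% of all genes). In HET against WT 0 of 15 epithelial markers were called and 4 of 14 mesenchymal markers rose (1.22%). In bulk glands fewer cells of a type and less RNA per cell cannot be told apart.

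Other cell types showed in smaller sums. Skeletal muscle markers summed to 127 to 569 CPM in FGFRi, against 17.5 to 55.3 CPM in DMSO, and to 144 to 162 CPM in HOM, against 75.7 to 115 CPM in HET and 13.8 to 16.3 CPM in WT. Glial markers summed to 33.2 to 44.8 CPM in FGFRi, against 11.5 to 18.7 CPM in DMSO, and to 43.4 to 46.5 CPM in HOM, against 25.4 to 25.5 CPM in HET and 21.9 to 25.0 CPM in WT. Neuron markers summed to 168 to 233 CPM in FGFRi, against 48.0 to 182 CPM in DMSO, and to 194 to 217 CPM in HOM, against 139 to 149 CPM in HET and 126 to 172 CPM in WT. Muscle and glial sums were higher in every FGFRi than in any DMSO library and in both HOM libraries than in HET and WT, and neuron sums overlapped between FGFRi and DMSO. Endothelial markers summed to 6.70 to 9.07 CPM in FGFRi, against 4.62 to 7.55 CPM in DMSO, and to 17.3 to 18.9 CPM in HOM, against 13.02 to 23.1 CPM in HET and 8.11 to 8.64 CPM in WT. Leukocyte markers summed to 39.6 to 53.9 CPM in FGFRi, against 31.3 to 84.6 CPM in DMSO, and to 41.5 to 48.7 CPM in HOM, against 31.0 to 35.3 CPM in HET and 43.7 to 58.1 CPM in WT. The endothelial sum was thus higher in both HOM and both HET libraries than in WT, and the leukocyte sums of HOM and WT overlapped. The part of muscle, nerve, glia and endothelium in the levels of Qk, Mbnl1 and Rbfox2, which these tissues also express, was not tested.

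**Figure D4:**
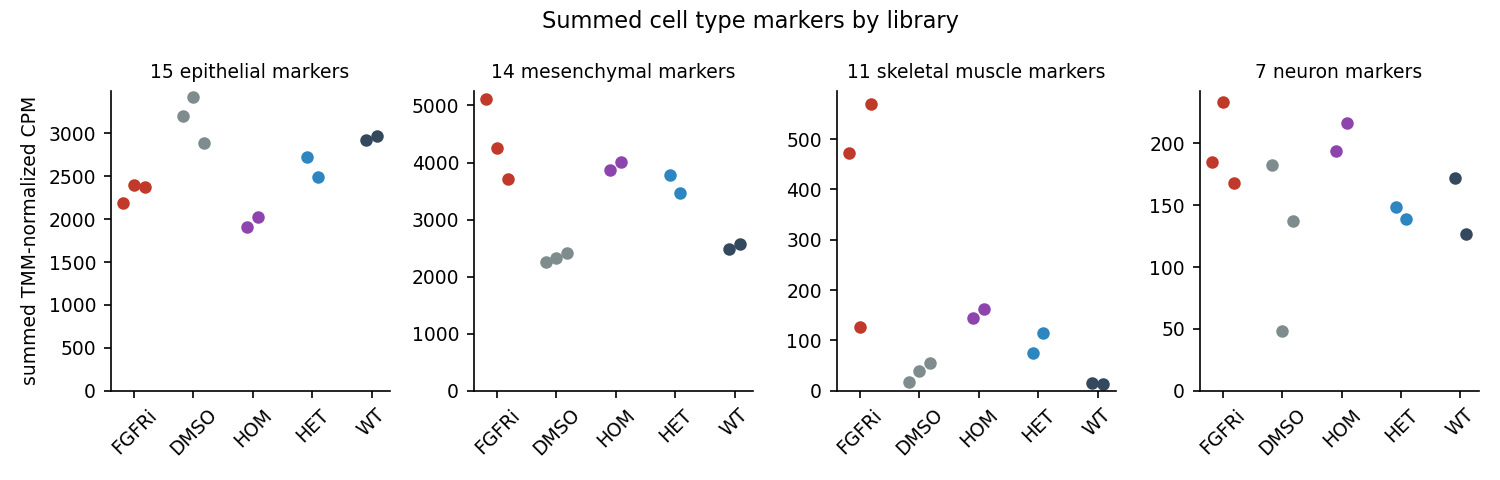
Summed CPM of the marker lists of epithelium, mesenchyme, skeletal muscle and neurons in each library (linear axes from 0), by group in the order FGFRi, DMSO, HOM, HET, WT. Epithelial sums are lower and mesenchymal and muscle sums higher in every FGFRi than in any DMSO library and in every HOM than in any WT library, while the neuron sums of FGFRi and DMSO overlap.

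Relative to the epithelial marker sum, the FGFRi and DMSO values of the 3 epithelial regulators overlapped. Esrp1 stood at 9.08%, 8.34% and 8.60% of that sum in FGFRi 1 to 3, against 7.99%, 7.73% and 8.83% in DMSO 1 to 3 (exact two-sided permutation test, p = 0.3). Esrp2 averaged 2.50 ± 0.14% in FGFRi, against 2.28 ± 0.22% in DMSO (SD, n = 3 each, exact permutation p = 0.3). Rbm47 averaged 4.86 ± 0.26% in FGFRi, against 5.02 ± 0.10% in DMSO (SD, n = 3 each, exact permutation p = 0.4). With 3 against 3 the smallest p this test can give is 0.1.

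For Rbfox2 and Qk the groups did not overlap on this scale. Rbfox2 was 7.87 ± 0.29% of the epithelial sum in FGFRi and 4.70 ± 0.44% in DMSO, and Qk was 6.08 ± 0.85% in FGFRi, against 3.51 ± 0.52% in DMSO (SD, n = 3 each, exact permutation p = 0.1 for both). Ptbp1 and Mbnl1 were also higher relative to epithelium in all 3 FGFRi libraries (exact permutation p = 0.1 each). With libraries scaled to epithelial counts, 8256 of 15859 tested genes were called higher in FGFRi. In the cross, Esrp1 was 9.63 ± 0.22% of the epithelial sum in HOM (n = 2) and 8.50 ± 0.37% in the 4 controls (SD). Esrp2 was 3.16 ± 0.05% in HOM and 2.65 ± 0.10% in the controls, and for both genes HOM lay above all 4 controls. Rbm47 overlapped, with 5.81 ± 0.81% in HOM and 5.64 ± 0.30% in the controls. With libraries scaled to epithelial counts, 9852 of 15859 tested genes were called higher in HOM against the mean of WT and HET. Rbfox2 was 10.18 ± 0.16% in HOM and 6.41 ± 0.83% in the controls.

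Relative to the mesenchymal marker sum, all 7 regulators were lower in every FGFRi library than in any DMSO library (exact permutation p = 0.1 each). That sum was itself higher in FGFRi. With libraries scaled to mesenchymal counts, 11167 of 15859 tested genes were called lower, so the lower values are not particular to these regulators. Rbfox2 was 4.26 ± 0.76% of that sum in FGFRi and 6.36 ± 0.30% in DMSO, and Esrp1 was 4.69 ± 0.81% in FGFRi, against 11.1 ± 0.44% in DMSO (SD, n = 3 each). The direction of Rbfox2 and Qk thus differed between both scales, higher per epithelial marker RNA and lower per mesenchymal marker RNA. The median log2 change of the 15 epithelial markers was -0.51, beside -0.37 for Esrp1, -0.31 for Esrp2 and -0.50 for Rbm47.

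**Figure D5:**
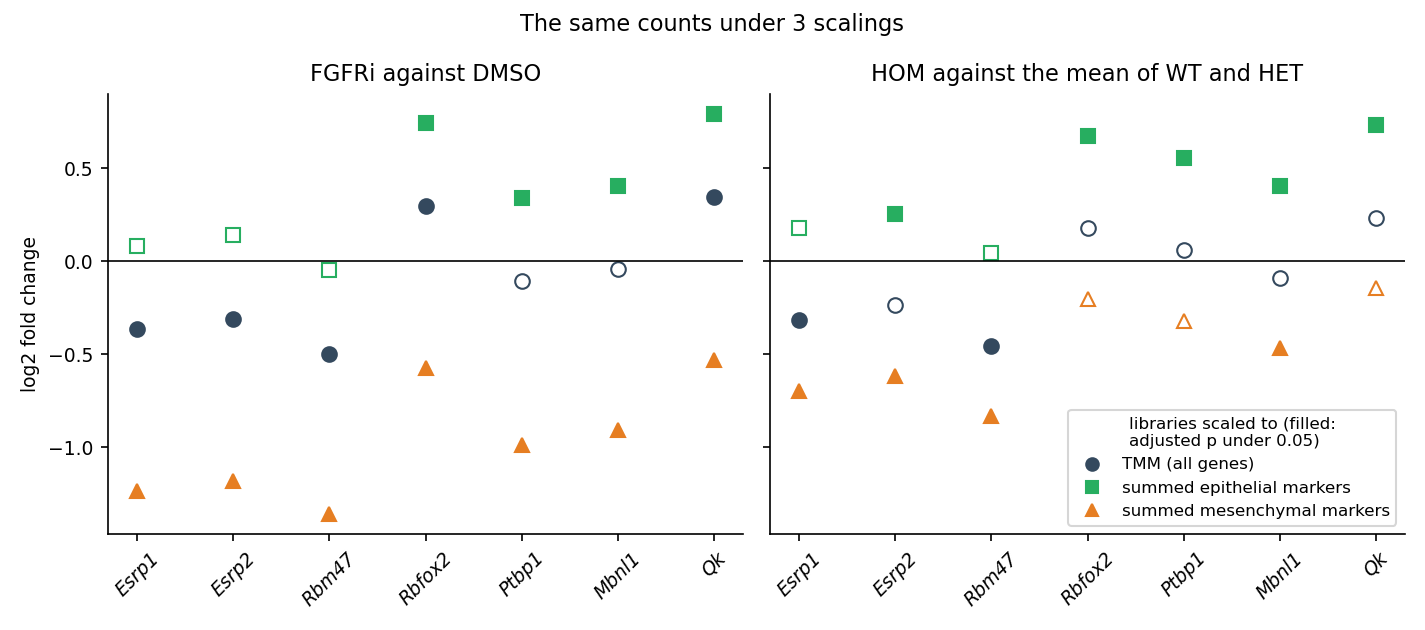
Log2 fold change of each regulator when libraries are scaled by TMM, by summed epithelial marker counts or by summed mesenchymal marker counts, for FGFRi against DMSO and HOM against the mean of WT and HET. In FGFRi against DMSO, Esrp1 is at -0.37 with TMM, at 0.084 per epithelial count and at -1.24 per mesenchymal count.

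Paralogs of the 7 were next. Of 8 paralogs 7 were tested, A1cf being too low, and 2 rose with the inhibitor against 0 that fell (28.6%). Beside this and the lists below, 20.5% of all genes were called in FGFRi and 5.88% in HOM against the mean of WT and HET. Rbm46, a relative of Rbm47 known from the germ line, had 3.11 ± 1.60 CPM in FGFRi, against 1.22 ± 0.16 CPM in DMSO, a log2 change of 1.20 (SE 0.38, adjusted p = 0.0371). Rbfox1, the neuronal and muscle member of the Rbfox family, had 5.94 ± 1.47 CPM in FGFRi, against 3.07 ± 1.69 CPM in DMSO, a change of 1.16 (SE 0.38, adjusted p = 0.0440). Both are low, and the calls of both were lost in fits that left out 1 library, with 6 of 12 such fits keeping Rbm46 and 3 of 12 keeping Rbfox1.

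The other paralogs did not pass. The log2 differences were -0.05 for Ptbp2, the neuronal partner of Ptbp1, -0.17 for Ptbp3, 0.12 for Mbnl2, -0.09 for Mbnl3 and 0.98 for Rbfox3, the neuronal antigen NeuN, which was read at under 1 CPM. In HOM against the mean of WT and HET 0 of 7 paralogs were called, with log2 differences of -0.15 for Ptbp2, -0.12 for Ptbp3, -0.06 for Mbnl2, -0.09 for Mbnl3, 0.79 for Rbm46, 0.17 for Rbfox1 and 0.31 for Rbfox3. With libraries scaled to epithelial counts Ptbp2, Ptbp3 and Mbnl3 turned positive in both comparisons and Mbnl2 in HOM, and with mesenchymal counts Mbnl2 turned negative in FGFRi.

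Among 9 further proteins reported to act on the FGFR2 exons, 0 rose and 2 fell with the inhibitor (22.2%, near the 20.5% of all genes called). Hnrnpm, which competes with ESRP1 at shared sites in human cells, had 202.6 ± 17.2 CPM in FGFRi, against 269.6 ± 4.15 CPM in DMSO (SD, n = 3 each) and fell by 0.41 (SE 0.08, adjusted p = 0.00224). Hnrnpf fell by 0.31 (SE 0.10, adjusted p = 0.0392), a call that 7 of 12 fits with 1 library left out kept. Of 20 hnRNP genes 5 fell and 0 rose (25%), with a median of -0.20 against -0.02 for all genes. Besides those 2 they were Hnrnpab, which fell by 0.48 (adjusted p = 0.00288), Hnrnpu, which fell by 0.31 (adjusted p = 0.0195), and Hnrnpul2, which fell by 0.26 (adjusted p = 0.0233), the last 2 called in 6 of 12 fits with 1 library left out. In HOM 0 of these 9 and 0 of these 20 were called, and scaled to epithelial counts Hnrnpm, Hnrnpf, Hnrnpu and Hnrnpul2 turned to small positive values in FGFRi.

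Of 13 SR proteins and Tra2 genes, general activators of exons, 1 rose and 1 fell (15.4%, beside 20.5% of all genes called). Srsf9 fell by 0.47 (SE 0.10, adjusted p = 0.00469) and Srsf12 changed by 1.28 (SE 0.33, adjusted p = 0.0138), and in HOM 0 of the 13 were called. Srsf12 was called in 10 of 12 fits with 1 library left out. Of 21 splicing factors of nerve and muscle, 8 rose with the inhibitor and 0 fell (38.1%), at a median of 0.62. Celf2 changed by 0.62 (adjusted p = 0.00192), the neuronal Elavl4 by 1.11 (adjusted p = 0.00479), the muscle factor Rbm24 by 1.94 (adjusted p = 0.00691) and the neuronal Nova1 by 1.21 (adjusted p = 0.00737). Rbm24 lost its call without FGFRi 3 and Nova1 without DMSO 2 (adjusted p = 0.0627 and 0.0548). These are low genes, Rbm24 with 2.59 to 10.96 CPM in FGFRi and 0.80 to 2.46 CPM in DMSO. In HOM 1 of the 21 rose, Msi1, by 0.41 on the log2 scale (adjusted p = 0.0120), in 10 of 12 fits with 1 library left out. The part of the skeletal muscle and neuronal marker RNA described above in these rises was not tested. Scaled to mesenchymal counts, Celf2 was at -0.25 in FGFRi.

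Of 10 genes whose exons ESRP proteins are known to regulate, 2 fell in whole-gene level with the inhibitor and 0 rose. This share of 20% was near the 20.5% of all genes called. The genes that fell were Fgfr2, with 80.6, 73.9 and 75.8 CPM in FGFRi, against 95.2, 90.0 and 100.0 CPM in DMSO (log2 change -0.31, SE 0.08, adjusted p = 0.00942), and the polarity gene Scrib (-0.32, adjusted p = 0.0253, called in 8 of 12 fits with 1 library left out). Neither value bears on splicing. The call of Fgfr2 was lost without FGFRi 2 (adjusted p = 0.0635). Among the 5 FGF receptor genes Fgfr2 alone was called in FGFRi, with Fgfr1 at -0.20, Fgfr3 at 0.45, Fgfr4 at 1.30 and Fgfrl1 at -0.30. In HOM 0 of the 10 targets and 0 of the 5 receptors were called, with Fgfr2 at -0.07, Fgfr1 at 0.12, Fgfr3 at -0.44, Fgfr4 at 1.45 and Fgfrl1 at 0.17.

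ZEB1 and ZEB2 are repressors of Esrp1 and other epithelial genes, as known from human and mouse cell lines, and with SNAI1, SNAI2 and TWIST1 they are also made by mesenchymal cells. All 5 rose with the inhibitor. Zeb2 had 58.8 ± 8.83 CPM in FGFRi, against 20.1 ± 3.22 CPM in DMSO (log2 change 1.56, SE 0.12), and Zeb1 had 27.5 ± 4.56 CPM in FGFRi, against 11.9 ± 1.04 CPM in DMSO (1.16, SE 0.13). Twist1 changed by 1.40, Snai1 by 1.34 and Snai2 by 0.98. All 5 stayed above 0 in FGFRi under both marker scalings. With mesenchymal counts 2 of them were called, where 293 of 15859 tested genes were called higher and 11167 lower. In HOM 4 of 5 rose, Zeb1 by 0.79, Zeb2 by 0.87, Snai1 by 0.94 and Twist1 by 0.62 on the log2 scale, and Snai2 was at 0.20 (adjusted p = 0.533). Twist1 was called there in 7 and Snai1 in 10 of 12 fits with 1 library left out. Their median in FGFRi was 1.34, beside 0.89 for the 14 mesenchymal markers, and the part of mesenchyme in these rises was not tested.

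Of 5 transcription factors of epithelial cells, from the Grhl and Ovol families, 3 fell with the inhibitor. They were Grhl1, by 0.60 (adjusted p = 0.000513), Grhl2, by 0.23 (adjusted p = 0.0362), and Ovol1, by 0.66 (adjusted p = 0.00792). Grhl3 was at -0.42 and Ovol2 at -0.08. Grhl2 was called in only 4 of 12 fits that left out 1 library, and it turned to 0.21 when scaled to epithelial counts. In HOM Grhl1 alone fell, by 0.51 (adjusted p = 0.00733, called in 10 of 12 fits with 1 library left out), with Grhl2 at -0.24, Grhl3 at -0.48, Ovol1 at -0.40 and Ovol2 at -0.02. The E-box CAGGTG, which ZEB proteins bind, was searched on both strands of the RefSeq promoters (250 bases before to 50 after the start). The promoters of Esrp1, Esrp2 and Rbfox2 were not analysed here. The E-box stood in 0 of the 7 windows held for Rbm47, Mbnl1, Ptbp1 and Qk, and in 20.2% of all 32851 promoter windows. With 7 windows of 4 genes, 3 of them from Rbm47, the numbers are too small to compare with that share. Action of ZEB proteins on the members was not tested.

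The genes most like each regulator were found by the root-mean-square (RMS) difference of log2 CPM, centred on each gene's mean over the 12 libraries, among 10315 genes of at least 5 CPM. Esrp1 was nearest to Ctnna1, which encodes alpha-catenin of adherens junctions (RMS 0.061), then Suclg2 (0.068) and Minos1 (0.068). Esrp2 was nearest to the kinetochore gene Ndc80 (0.049), the DNA ligase gene Lig1 (0.052) and the receptor gene Erbb2 (0.064), and Rbm47 to Kif16b (0.076), Stard4 (0.078) and Tspan12 (0.079).

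Rbfox2 was nearest to Rnf122 (RMS 0.068), Tshz1 (0.069) and Tcaf1 (0.073), and Qk to E2f6 (0.088), Sgcb (0.089) and Slc35b4 (0.089). Ptbp1 was nearest to the ribosomal protein genes Rps28 and Rpl7a (0.052 each) and to Cops5 (0.061), and Mbnl1 to Gabpb2 (0.057), Nrip1 (0.058) and Ap1g1 (0.060). The members' own SD of log2 CPM ran from 0.10 for Mbnl1 and 0.12 for Ptbp1 to 0.25 for Rbm47, so a small distance from a gene that varies little says little. The 12 points share the groups and scaling of the libraries.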

How the data were processed

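Libraries were prepared with NEBNext Ultra II after removal of ribosomal RNA, per the labels' protocols. The authors deposited raw read counts per gene with no normalization; bcl2fastq, STAR and GRCm39 come from the submitters' processing notes, without versions. For the counting program, its strand setting and its annotation nothing is given in the sources used here. Reads of Esrp1, Esrp2, Rbm47, Rbfox2 and Ptbp1 therefore cannot be told from those of genes that overlap them. Reads are not independent molecules.

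Symbols and exon lengths came from GENCODE M21 (GRCm38), which matched 52489 of 52636 identifiers, so exon IIIb of Fgfr2 alone is given coordinates, on that annotation's own build. Counts were tested in R 4.3.3 with edgeR 4.0.16 (quasi-likelihood F test, TMM, filterByExpr with minimum count 10 and minimum total 15, leaving 15859 genes). One model held the 12 libraries with 1 coefficient per group (residual df 7, with a prior df of 7.96 and a biological coefficient of variation of 0.11). P-values were two-sided, adjusted by Benjamini-Hochberg over all tested genes, and called under 0.05. The SE is the size of the log2 change over the square root of F. The code was tested on simulated data.

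The 7 members, the 20 lists (179 entries) and the tests were chosen with earlier results of these data known. Named are all members, paralogs, FGF receptors, repressors of epithelial genes and epithelial transcription factors. Of each other splicing list up to 4 called genes by p in FGFRi and 3 in HOM are named. So are the 3 nearest genes of each member. Alternatives were DESeq2 1.42.0, voom in limma 3.58.1, other scalings and filters, a sex covariate, a replicate block, the compared groups alone and each library left out.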

Additional observations from a re-analysis of the deposited data

How the results depend on the processing

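Over the alternatives, 1190 member values were recomputed: 1103 kept their call and direction or stayed uncalled, 47 lost and 22 gained a call, and 18 changed sign where one of both values was called. Another 58 changed sign with neither value called. In FGFRi against DMSO the 5 calls held with DESeq2, limma-voom, all filters, the block and the compared groups alone.

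Scaling decided most other changes. Relative to TMM, scaling to epithelial counts moved the median of all genes by 0.45 in FGFRi and 0.49 in HOM against the mean of WT and HET, scaling to mesenchymal counts by -0.86 and -0.38, and library totals by 0.15 in HOM. With library totals 0 members were called in FGFRi against DMSO (8.22% of all genes called) and in HOM against the mean of WT and HET (3.99%), against HET (0.876%) and against WT (5.47%), with larger SEs. With epithelial counts Esrp1, Esrp2 and Rbm47 lost their calls in FGFRi (adjusted p = 0.409, 0.213 and 0.683) and in HOM against WT (0.175, 0.0855 and 0.412), and the other 4 were called higher in both, where 52.1% and 63.3% of all genes were. With the same scaling 5 were called in HOM against the mean of WT and HET and 4 in HOM against HET, all higher, beside 62.1% and 37.9% of all genes. With mesenchymal counts all 7 were called lower in FGFRi (70.4% of all genes), 4 in HOM against the mean of WT and HET (31.8%), 0 in HOM against HET (0.757%), 7 in HOM against WT (57.7%), 6 in HET against WT (45.1%) and 2 in the difference of both effects (23.1%).

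Where the value before or after was called, signs turned with epithelial counts in FGFRi for Esrp1 (0.084), Esrp2 (0.14), Ptbp1 (0.34), Mbnl1 (0.41), Ptbp3 (0.28), Mbnl3 (0.37), Fgfr1 (0.25), Fgfr2 (0.14), Grhl2 (0.21), Hnrnpm (0.036), Hnrnpf (0.14), Hnrnpu (0.14), Hnrnpul2 (0.18) and Scrib (0.13). In HOM against the mean of WT and HET they turned for Esrp1 (0.18), Esrp2 (0.26), Rbm47 (0.043), Mbnl1 (0.41), Ptbp3 (0.38), Mbnl2 (0.44), Mbnl3 (0.41), Fgfr2 (0.42), Grhl2 (0.25), Hnrnpm (0.32), Hnrnpf (0.49), Srsf9 (0.39), Hnrnpab (0.29), Hnrnpu (0.31), Hnrnpul2 (0.31) and Scrib (0.38). In HOM against HET Esrp2 turned (0.29), and in HOM against WT Esrp1 (0.16), Esrp2 (0.22), Rbm47 (0.10), Ptbp1 (0.54) and Mbnl1 (0.49). With mesenchymal counts Rbfox2 (-0.57), Qk (-0.53), Mbnl2 (-0.75), Celf2 (-0.25) and Msi1 (-0.80) turned in FGFRi, and Rbfox2 (-0.41) and Qk (-0.48) in HOM against WT. With no call on either side, epithelial counts also turned Ptbp2 in FGFRi (0.40) and in HOM against the mean of WT and HET (0.34), and Esrp1 (0.20) and Mbnl1 (0.33) in HOM against HET, and mesenchymal counts turned Rbfox2 (-0.20), Qk (-0.14) and Ptbp1 (-0.32) in HOM against the mean of WT and HET. The values follow the scaling factor by construction.

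In the cross, no filter on low counts left 1 call against the mean of WT and HET, with more genes tested. Rbm47 lost its call against HET without mitochondrial, ribosomal RNA-like and erythroid features, with the compared groups alone and with the replicate block (0 called each), and with sex as a covariate 0 were called in HOM against the mean of WT and HET, HOM against HET and HOM against WT, where 0.29%, 0.284% and 0.731% of all genes were. Leaving out 1 library gave 4 to 5 calls in FGFRi against DMSO, 0 to 2 in HOM against the mean of WT and HET, 0 to 1 in HOM against HET and 0 to 3 in HOM against WT.

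Same-numbered libraries did not deviate together (correlations of -0.15 to -0.02), and numbers were not read as pairs. In groups of 2 the deviations from the group mean mirror each other, so crossed numbers would turn the sign of the correlation. There the check cannot show whether libraries were paired. The replicate block kept 5 member calls in FGFRi and 2 against the mean of WT and HET. With the WT numbers crossed, chosen after seeing the data, 2 members were called against that mean and 3 against WT. No depth here separates isoforms.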
